A study of Homo sapiens with 6 samples.

Results

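The genes described here encode ribonucleotide reductase, the enzyme that makes deoxyribonucleotides, and the enzymes that salvage or break down the deoxyribonucleoside triphosphate (dNTP) pool. They are the 9 genes RRM1, RRM2, RRM2B, SAMHD1, DCK, DGUOK, TK2, DCTD and DCTPP1, taken by gene name from the 62754 genes of the deposited table, in which each name had 1 row. Their RNA was measured in HPNE-hTERT cells, a non-malignant pancreatic duct line kept growing by telomerase. One group of 3 libraries came from cells given FOLFIRINOX for 4 days (5-fluorouracil at 10 µM, SN-38 at 25 nM and oxaliplatin at 5 µM, a regimen used here to bring on senescence), and the other 3 came from cells given the vehicle DMSO for the same time. Both groups are 1 cell line with the same telomerase background. Each column of the table carries a number, P14, P15 or P19, that occurs in 1 library of each group. Values are normalized reads (gene reads divided by a library size factor), given as mean ± SD with n = 3, and differences are log2 differences of FOLFIRINOX minus vehicle on the log2(value + 1) scale with their standard error.

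Ribonucleotide reductase joins a large catalytic subunit, R1, encoded by RRM1, to a small subunit, R2, that carries the radical needed for catalysis. Dividing cells make the R2 protein RRM2 in S phase and destroy it afterwards, while RRM2B is an alternative R2 induced by DNA damage that serves DNA repair and mitochondrial DNA in cells that do not divide. Deoxyribonucleosides are salvaged by DCK in the cytosol and nucleus and by DGUOK and TK2 in mitochondria. SAMHD1 and DCTPP1 remove triphosphates from the pool, and DCTD turns dCMP into dUMP, the substrate of thymidylate synthase, which is the enzyme blocked by the active form of 5-fluorouracil.

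RefSeq promoter windows (GRCh38.p14) were at hand for 8 of the 9 genes, all but RRM2B. The 250 bases before the start are shown, 5′ to 3′ on the gene's strand, for the members whose windows hold a CCAAT box. This box, the letters read by the factor NF-Y, is in capitals. RNA fell for 3 of these genes (RRM2, RRM1 and SAMHD1) and was not called different for DGUOK. DCK and DCTPP1 RNA also fell, DCTD and TK2 were not called different, and the windows of these genes hold no such box. Those windows lie inside the annotated genes, and the bases before the outermost starts were not examined. The absence of a box there therefore does not show that these promoters lack one. RRM2 is chr2:10122489-10122738 on the plus strand, RRM1 chr11:4094435-4094684 on the plus strand, SAMHD1 chr20:36951709-36951958 on the minus strand and DGUOK chr2:73926630-73926879 on the plus strand.
RRM2: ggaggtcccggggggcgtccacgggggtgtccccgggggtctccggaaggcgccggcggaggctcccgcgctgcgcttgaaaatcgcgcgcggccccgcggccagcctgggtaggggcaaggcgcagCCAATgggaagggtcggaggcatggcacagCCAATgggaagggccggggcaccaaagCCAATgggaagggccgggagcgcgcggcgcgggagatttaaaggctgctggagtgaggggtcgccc
RRM1: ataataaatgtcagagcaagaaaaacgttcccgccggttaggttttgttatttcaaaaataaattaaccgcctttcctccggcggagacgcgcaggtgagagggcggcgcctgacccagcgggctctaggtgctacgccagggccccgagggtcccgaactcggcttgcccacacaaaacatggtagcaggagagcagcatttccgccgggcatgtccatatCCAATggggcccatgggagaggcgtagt
SAMHD1: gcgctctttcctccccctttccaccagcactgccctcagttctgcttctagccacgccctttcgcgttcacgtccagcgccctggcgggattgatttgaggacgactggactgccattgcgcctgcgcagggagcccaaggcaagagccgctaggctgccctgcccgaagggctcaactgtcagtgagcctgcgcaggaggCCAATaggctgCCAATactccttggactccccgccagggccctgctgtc
DGUOK: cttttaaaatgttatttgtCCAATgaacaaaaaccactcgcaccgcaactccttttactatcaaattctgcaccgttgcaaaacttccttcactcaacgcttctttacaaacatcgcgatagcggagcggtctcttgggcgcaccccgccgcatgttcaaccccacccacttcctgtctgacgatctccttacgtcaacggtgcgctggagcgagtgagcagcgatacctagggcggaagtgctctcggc
The RRM2 window belongs to the downstream of 2 RefSeq starts and holds 3 CCAAT boxes, which begin 123, 93 and 66 bases before that start, each inside the same 15 bases, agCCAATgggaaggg. SAMHD1 has 2 boxes, 49 and 38 bases before its start, RRM1 has 1 at 28 bases and DGUOK 1 at 231 bases. Of 35116 RefSeq windows of this length, 32.0% held CCAAT on either strand and 2.93% held it 3 or more times. The windows of DCK, DCTD, DCTPP1 and TK2 held none. These windows, like that of RRM2, lie inside the GENCODE span of the gene. The DCTPP1 window (chr16:30429801-30430050, minus strand) is inside a gene annotated from 30423619 to 30430075. The bases before the outermost annotated start of these genes were not examined. TTTNNCGC, an E2F-like word found on either strand in 5.92% of windows, was in no member's window, and TTTGAA, the cell cycle homology region word found in 13.3%, occurred once, in RRM1. Over the 11702 tested genes with a window, 23.9% of the 624 genes with 3 or more CCAAT boxes were called lower after FOLFIRINOX and 12.4% of the 6880 genes with none, against 14.2% of all. A gene with several windows was classed by the one with the most boxes. These letter matches describe the sequences and are not measured binding, and their part in the results was not tested.

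Gene reads summed to between 83981154 and 97762802 per library. The test covered 17951 genes that reached 10 normalized reads in 3 or more libraries. Of these, 11.4% were called higher and 12.2% lower (limma, adjusted p under 0.05), which are 2047 and 2191 genes. edgeR on the recovered reads called 1820 (10.1%) and 2389 (13.3%), and limma with every library scaled to a common total called 2684 and 1699. Common-total scaling moved the median difference of all genes by 0.109. With libraries paired by P number (replicate block), 3995 (22.3%) were higher and 3918 (21.8%) lower, and without both P14 libraries 1021 (6.08%) and 1326 (7.89%). Leaving out FOLFIRINOX P19 alone gave 1201 higher. The share of reads from mitochondrial ribosomal RNA was 1.18% to 2.74% in FOLFIRINOX and 0.552% to 0.864% in vehicle, highest in the P14 library of each group. Its part in the results was not tested, and each called member difference below is also given without the P14 libraries. The label of ductal epithelium was met in part. Of 10 ductal and epithelial markers, KRT18 and KRT8 were abundant (9901 ± 905 and 1776 ± 361 in vehicle), while EPCAM and CFTR stayed below 10 in every library and KRT19 reached at most 17.7. Summed levels of that list were 11979 to 14440 in vehicle and 8966 to 9959 in FOLFIRINOX. The 10 mesenchymal markers summed to 3513810 to 5257430 in vehicle and 2535020 to 3083420 in FOLFIRINOX, and 7 of them fell. All 9 acinar and islet markers were below 10 everywhere, and of 9 blood and endothelial markers 4 were, CD3E, CDH5 and HBB among them. Of the rest, PTPRC was 0 in every vehicle library and reached 35.5 in FOLFIRINOX P19. PECAM1 reached 21.2 and VWF 17.0 in vehicle P15, and LYZ 16.8 and CD68 15.9 in FOLFIRINOX P19. Marker sums moved with the groups, and their part in the results was not tested.

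All 9 members passed the filter on low values. After FOLFIRINOX 1 of them rose (RRM2B) and 5 fell (RRM2, RRM1, DCTPP1, SAMHD1 and DCK), against 11.4% and 12.2% of all genes, and the 3 others were not called. The member median was −0.67 and that of all tested genes 0.02. The groups did not overlap for 6 members, the same 6, where 39.5% of all tested genes did not overlap. The sets of called members were unchanged with the replicate block, which called 22.3% of all genes higher and 21.8% lower. In bulk RNA, fewer cells with a transcript and less of it per cell cannot be told apart.

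**Figure D1:**
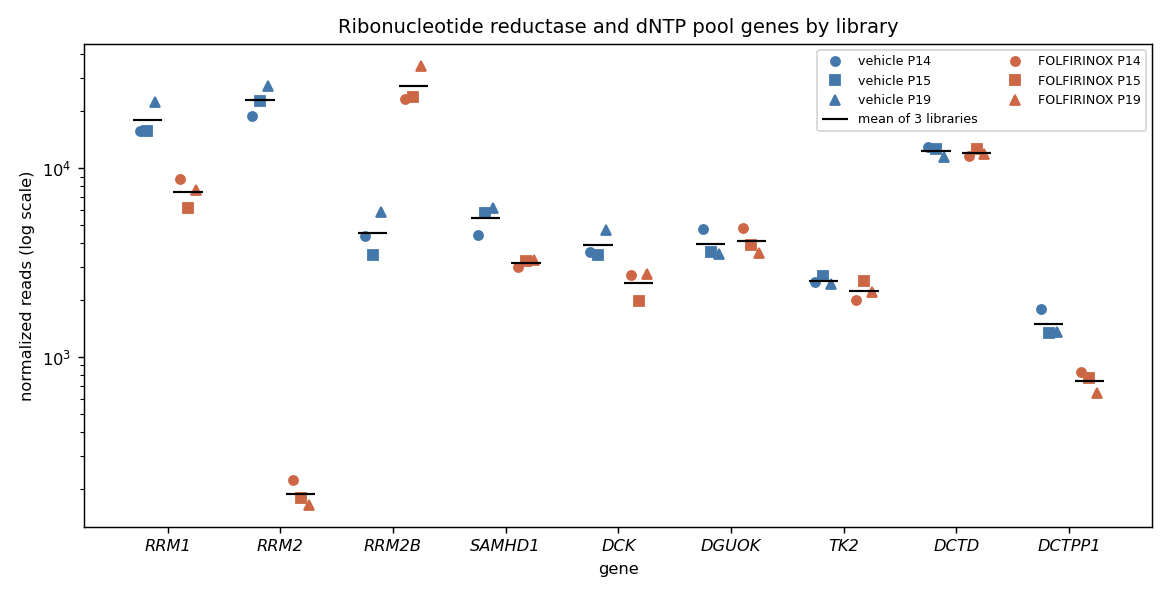
Normalized reads (log axis) of the 9 genes in each library, vehicle in blue and FOLFIRINOX in orange, with the marker shape giving the P number and the black line the mean of 3 libraries. RRM2 drops from 18923 or more in vehicle to 222 or less in FOLFIRINOX, RRM2B rises above every vehicle library, and DGUOK, TK2 and DCTD overlap between groups.

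RRM1 (chromosome 11, 4094707 to 4138876, GRCh38), the catalytic subunit, had 15675, 15663 and 22419 normalized reads in the vehicle libraries P14, P15 and P19 and 8749, 6102 and 7642 in the FOLFIRINOX libraries of the same order. Every FOLFIRINOX library was below every vehicle library. RRM1 fell from 17919 ± 3897 to 7498 ± 1329.7, which is 2.38-fold (−1.25 ± 0.20, limma adjusted p = 0.0011). The difference was −0.84, −1.36 and −1.55 within P14, P15 and P19, and −1.46 without both P14 libraries.

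RRM2 (chromosome 2, 10120698 to 10131419) gave the largest difference of the 9 members. Its vehicle libraries held 18923, 22639 and 27116 normalized reads, and its FOLFIRINOX libraries 222, 179 and 164. It fell from 22893 ± 4103 to 189 ± 30.1, a 120-fold difference (−6.91 ± 0.19, limma adjusted p = 3.4e-09), and ranked 27th lowest of the 17951 tested genes. Within P14, P15 and P19 the differences were −6.41, −6.97 and −7.36. Without both P14 libraries the value was −7.17. RRM2 has processed pseudogenes that could share its reads. The most abundant of these in the table, RRM2P3, had a mean of 16.1 in vehicle and was listed at 0 in FOLFIRINOX. The RRM2 reads that remained after treatment, 176 to 216 per library, were far above the filter.

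RRM2B, the damage-inducible R2 gene on chromosome 8, went the other way. It had 4342, 3460 and 5850 normalized reads in vehicle P14, P15 and P19, and 23222, 23889 and 34698 after FOLFIRINOX. The lowest treated library was far above the highest vehicle library. RRM2B rose from 4550.5 ± 1209 to 27269.7 ± 6441, or 6.03-fold (2.59 ± 0.22, limma adjusted p = 1.3e-05), and ranked 256th highest of all tested genes. The pairs gave 2.42, 2.79 and 2.57, and the value without both P14 libraries was 2.68.

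The identity of the R2 RNA therefore differed between the groups while its sum did not separate them. Per kilobase of annotated exon, RRM2B made up 18.04%, 12.8% and 17.1% of RRM2 plus RRM2B in the vehicle libraries P14, P15 and P19 and 99.0%, 99.2% and 99.5% in FOLFIRINOX. The means were 16.0% ± 2.81 and 99.2% ± 0.249 (two-sided exact permutation p = 0.10, the smallest that 3 against 3 can give). The summed R2 level was 4337, 4877 and 6149 normalized reads per kilobase in vehicle and 4227, 4339.5 and 6285 in FOLFIRINOX, so the groups overlapped (exact permutation p = 0.90). That sum depends on the length given to each gene. With the longest protein-coding transcript as length it was 7156 ± 1293 in vehicle and 5582 ± 1300.3 in FOLFIRINOX (exact permutation p = 0.30), and the RRM2B shares were 12.9% ± 2.34 and 99.0% ± 0.319. The ratio of this R2 sum to RRM1, both per kilobase of exon, was 1.201 ± 0.0867 in vehicle and 2.81 ± 0.722 in FOLFIRINOX, with no overlap (exact permutation p = 0.10).

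**Figure D2:**
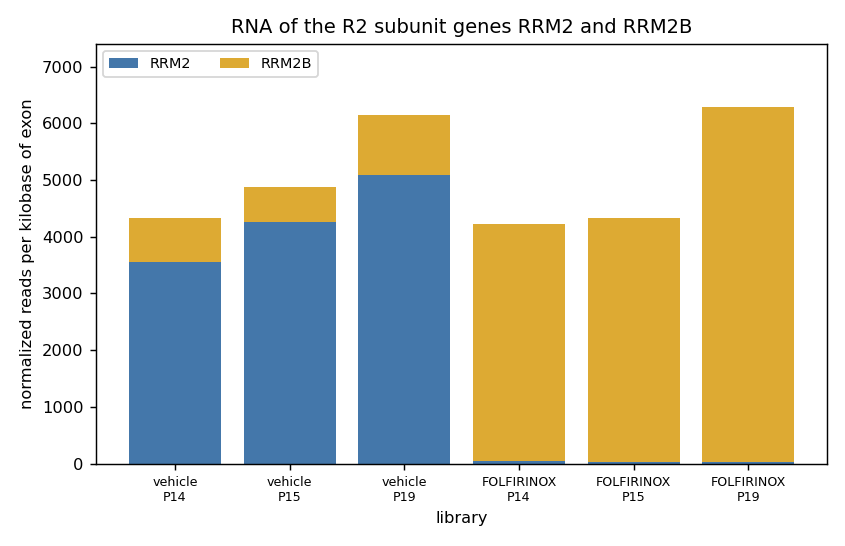
Stacked bars of normalized reads per kilobase of exon for RRM2 (blue) and RRM2B (yellow) in the 6 libraries. RRM2B makes up 12.8% to 18.04% of each vehicle bar and 99.0% or more of each FOLFIRINOX bar, while the bar heights of the groups overlap.

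Of the enzymes that remove dNTPs, both members fell. SAMHD1 (chromosome 20, 36889773 to 36951901), a triphosphohydrolase that cuts dNTPs to deoxyribonucleosides and is known for starving viral reverse transcription, had 4415, 5774 and 6102 normalized reads in vehicle P14, P15 and P19 and 2996, 3228 and 3236 in FOLFIRINOX. The treated libraries lay close together and below every vehicle library. SAMHD1 fell 1.71-fold, from 5431 ± 894 to 3153 ± 136 (−0.77 ± 0.17, limma adjusted p = 0.0076), and differed by −0.88 without both P14 libraries.

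DCTPP1 (chromosome 16, 30423619 to 30430075), a pyrophosphatase that acts on dCTP and its modified forms, was the least abundant member in vehicle by read count. It had 1799, 1333 and 1347 normalized reads in vehicle P14, P15 and P19, and 827, 769 and 644 in FOLFIRINOX, again without overlap. It fell 1.99-fold, from 1493 ± 265 to 747 ± 93.4 (−0.99 ± 0.19, limma adjusted p = 0.0036). Its difference was −0.93 without both P14 libraries.

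The 3 deoxyribonucleoside kinases did not all pass the test. DCK (chromosome 4, 70992538 to 71030914), which phosphorylates deoxycytidine, deoxyadenosine and deoxyguanosine and activates drugs such as gemcitabine, had 3590, 3460 and 4700.2 normalized reads in vehicle P14, P15 and P19. Its FOLFIRINOX libraries had 2714, 1964 and 2731. DCK fell 1.59-fold, from 3917 ± 682 to 2469 ± 438 (−0.67 ± 0.19, limma adjusted p = 0.0286). This was the least stable of the member calls. It was lost without FOLFIRINOX P15 (adjusted p = 0.111), vehicle P14 (0.0533), vehicle P19 (0.0706) or both P14 libraries (a difference of −0.80, 0.0655), with common-total scaling (0.0538) and in limma without a trend (0.0767), while the replicate block gave 5.4e-05. DESeq2 in the authors' deposited table gave DCK a log2 fold change of −0.67 with adjusted p = 0.0125.

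DGUOK (chromosome 2, 73926826 to 73958961), the mitochondrial purine deoxyribonucleoside kinase, had 4746, 3577 and 3500.2 normalized reads in vehicle and 4811, 3904 and 3528 in FOLFIRINOX. The groups overlapped, and libraries of the same P number differed by 0.02, 0.13 and 0.01. Its difference was 0.05 ± 0.18 (95% interval −0.35 to 0.46, limma adjusted p = 0.863). With the replicate block the interval was −0.19 to 0.29. TK2 (chromosome 16, 66508003 to 66552544), the mitochondrial pyrimidine deoxyribonucleoside kinase, had 2486, 2675 and 2417 in vehicle and 2000, 2525 and 2206 in FOLFIRINOX. The treated library was lower in each pair, but the groups overlapped. TK2 differed by −0.18 ± 0.16 (95% interval −0.53 to 0.18, limma adjusted p = 0.462, and −0.43 to 0.08 with adjusted p = 0.262 with the replicate block).

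The changes of DCK and of the mitochondrial kinases were compared directly through their log2 ratio in each library. The DCK to DGUOK ratio differed by −0.42, −0.94 and −0.79 within P14, P15 and P19, a mean of −0.72, and the groups overlapped (two-sided exact permutation p = 0.20, Benjamini-Hochberg adjusted p = 0.20 over 4 ratios). The DCK to TK2 ratio differed by −0.49, with −0.09, −0.73 and −0.65 within the pairs (exact permutation p = 0.20, adjusted p = 0.20). Both ratios were lower in each of the 3 pairs and overlapped between the groups. This test ignores the pairs, and 3 against 3 cannot go below 0.10. The RRM2 to RRM1 ratio differed by −5.66 without overlap (exact permutation p = 0.10, the smallest possible, adjusted p = 0.20), and was lower in each of the 3 pairs. The SAMHD1 to RRM1 ratio differed by 0.48, with 0.28, 0.52 and 0.64 within the pairs (exact permutation p = 0.20, adjusted p = 0.20).

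DCTD (chromosome 4, 182890060 to 182917936), the dCMP deaminase, was among the most abundant members, and its groups overlapped. It had 12874, 12592 and 11457 normalized reads in vehicle and 11639, 12587 and 11850.1 in FOLFIRINOX. The difference was −0.03 ± 0.14 (95% interval −0.35 to 0.28, limma adjusted p = 0.892). The differences of DGUOK, TK2 and DCTD were all under 0.2 in size, as were those of 26.4% of all tested genes.

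**Figure D3:**
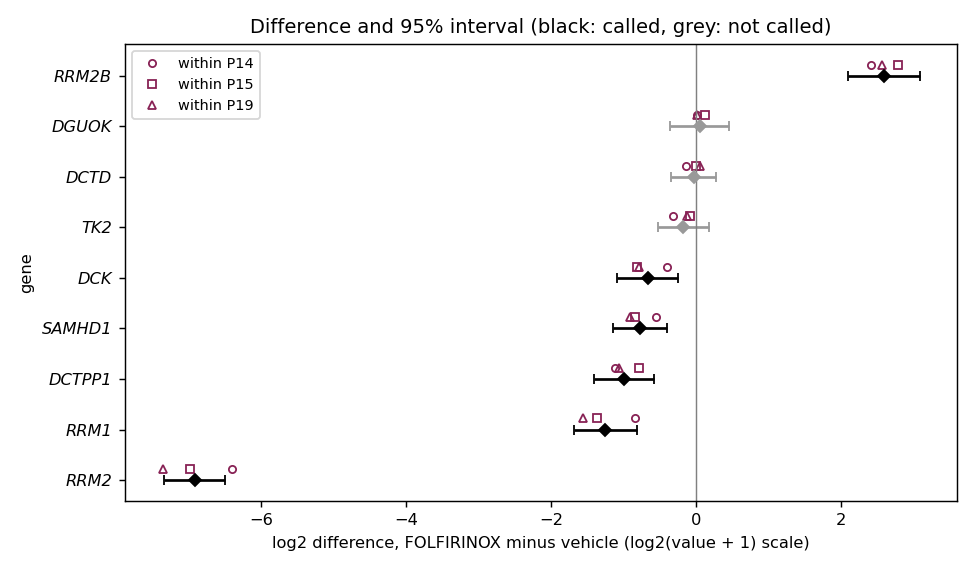
Log2 difference of FOLFIRINOX minus vehicle for each member (diamond) with its 95% interval, black where called and grey where not, and the difference within each P number (open symbols). The 3 within-pair values of the 6 called members all lie on 1 side of 0, and the intervals of DGUOK, TK2 and DCTD include 0.

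The order of the members' levels was read per kilobase of exon, since longer genes collect more reads. In vehicle RRM2 and RRM1 were highest and not separable (4301 ± 771 and 4290 ± 933 normalized reads per kilobase), followed by DCTD at 3551 ± 217 and DGUOK at 2709 ± 480.0. DCK, DCTPP1 and RRM2B came next at 1214 ± 211, 944 ± 168 and 820.2 ± 218, with overlapping ranges between neighbours, and SAMHD1 and TK2 were lowest at 482 ± 79.4 and 352 ± 18.6. After FOLFIRINOX RRM2B was highest at 4915 ± 1161, ahead of DCTD at 3469 ± 144, DGUOK at 2805 ± 453 and RRM1 at 1795 ± 318. DCK, at 765 ± 136, and DCTPP1, at 472 ± 59.1, were followed by TK2 and SAMHD1, whose ranges overlapped (313 ± 36.9 and 280.0 ± 12.1), and RRM2 was last at 35.4 ± 5.65. RRM2 was thus among the 2 highest in vehicle and the lowest after FOLFIRINOX, where RRM2B was the highest. With the longest protein-coding transcript as length, DCTD was level with RRM2 at the top in vehicle (6241 ± 381 and 6233 ± 1117) and overlapped RRM2B at the top in FOLFIRINOX (6098 ± 252 and 5530.3 ± 1306). SAMHD1 then stood above RRM2B in vehicle, with overlapping ranges (1025 ± 169 and 923 ± 245). In FOLFIRINOX SAMHD1 then stood above TK2 without overlap (595 ± 25.8 and 439 ± 51.7) and overlapped DCTPP1 (611 ± 76.4).

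Some members share exon positions with other annotated genes, and reads there cannot be told apart, on opposite strands because the strand setting is not known and on the same strand with any setting. RRM2 and TK2 also overlap genes on their own strand, which were not analysed here. MOB1B, which overlaps DCK on the same strand, had means of 4057 in vehicle and 7363 in FOLFIRINOX. ZNF771, opposite DCTPP1, had 417 and 297. The antisense genes RRM1-AS1 and DGUOK-AS1 and the SAMHD1 neighbour TLDC2 had at most 20.3 in either group, far below the members themselves.

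The genes whose centred profiles over the 6 libraries lay nearest to RRM2 were all genes of mitosis. BUB1B, a spindle checkpoint kinase, was nearest (Euclidean distance 0.362 on the log2 scale, with a log2 difference of −6.64), followed by SKA1 of the kinetochore (0.368, difference −6.77) and BIRC5, survivin (0.557, difference −7.23). RRM2B was nearest to CNGA1, a cyclic nucleotide-gated channel gene (0.265, from 5.96 ± 1.62 to 46.1 ± 10.2), RGCC, a regulator of cell cycle (0.308, from 45.8 ± 10.5 to 272 ± 78.3), and SCIN, the actin-severing protein scinderin (0.399, from 13.8 ± 5.12 to 102 ± 24.7). SAMHD1 was nearest to DZIP1L, TTLL5 and GPHN (0.105, 0.106 and 0.119), with differences of −0.79, −0.83 and −0.73. The call of DZIP1L was lost without vehicle P15 (adjusted p = 0.0529). CNGA1 was below 10 in every vehicle library and passed the filter through its FOLFIRINOX libraries, so its place depends on the pseudocount: its difference was 2.77, and 1.95 with a pseudocount of 8, where RRM2B had 2.59 with either. These distances rest on 6 libraries in 2 groups and describe likeness only.

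Around the members, a list of 34 other genes that make, phosphorylate, carry or cut deoxyribonucleotides was read from the same test. Of 33 tested, 2 rose and 11 fell, with a median of −0.33, against 11.4% and 12.2% of all genes and a median of 0.02. With the replicate block 6 rose and 18 fell, where 22.3% and 21.8% of all genes did. Without both P14 libraries 6 fell, where 7.89% of all genes did. With common-total scaling 4 rose, where 2684 of the 17951 tested genes did. CMPK2, a mitochondrial UMP/CMP kinase, was below 10 in every library and was not tested.

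TK1, the cytosolic thymidine kinase of S phase, fell 48.6-fold, from 4272 ± 422 to 87.2 ± 11.2 (−5.60 ± 0.18, limma adjusted p = 9.0e-09). DTYMK, thymidylate kinase, fell 3.49-fold, from 2926 ± 546 to 830.01 ± 59.0. By contrast TYMS, thymidylate synthase, had 9099, 9264 and 10858 normalized reads in vehicle and 9260.5, 8783 and 8521 in FOLFIRINOX. The groups overlapped (−0.13 ± 0.15, 95% interval −0.46 to 0.19, limma adjusted p = 0.552). DUT, the dUTPase that keeps uracil out of DNA, fell from 8431 ± 766 to 5723 ± 609 (−0.56 ± 0.16, adjusted p = 0.0247). DUT did not pass without FOLFIRINOX P15 (adjusted p = 0.0914), FOLFIRINOX P19 (0.113), vehicle P14 (0.0709), vehicle P19 (0.0514) or both P14 libraries (0.0547), nor with common-total scaling (0.0649) or in limma without a trend (0.0613).

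SLC29A2, an equilibrative nucleoside transporter, fell from 50.005 ± 5.83 to 11.4 ± 5.55 (−2.12 ± 0.43, limma adjusted p = 0.0049), a call lost without both P14 libraries (0.0540). CDA, cytidine deaminase, was 442 ± 110.2 in vehicle and 277 ± 78.0 in FOLFIRINOX (−0.68 ± 0.27, adjusted p = 0.0981). The treated library was lower in each pair. The block gave an adjusted p of 0.0017, and leaving out vehicle P19 gave 0.0302. TYMP, thymidine phosphorylase, was 72.6 ± 14.2 in vehicle and 113 ± 23.5 in FOLFIRINOX (0.63 ± 0.28, adjusted p = 0.130, and 0.0445 with the block). Its groups did not overlap, as for 39.5% of all tested genes, and TYMP differed by 0.56, 0.68 and 0.64 within P14, P15 and P19. The 2 genes that rose were adenylate kinases. AK3, which works in the mitochondrial matrix, went from 8066 ± 947 to 22216 ± 1194 (1.47 ± 0.15, adjusted p = 5.1e-05). AK1, the cytosolic form, went from 859.7 ± 163 to 1545 ± 311 (0.84 ± 0.20, adjusted p = 0.0126). Leaving out FOLFIRINOX P15 ended that call (0.0535).

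**Figure D4:**
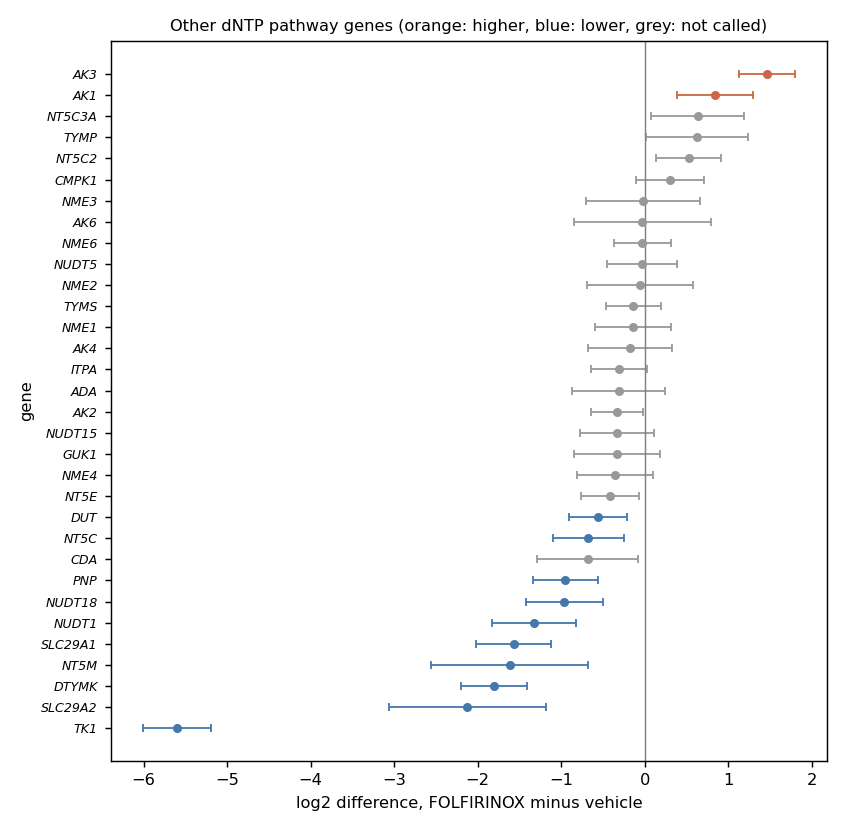
Log2 difference with its 95% interval for 32 of the 33 tested genes of the wider dNTP pathway list, orange where called higher (2), blue where called lower (10) and grey where not called (20). TK1 stands far to the left at −5.60 and TYMS lies near 0.

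A list of 26 genes known to regulate the members, by transcription, phosphorylation, destruction or inhibition, was read in the same way. Of these, 3 rose and 13 fell, with a median of −0.50 (also with E2F2 at its bound), against 11.4% and 12.2% of all genes. With the replicate block 5 rose and 16 fell, where 22.3% and 21.8% of all genes did. Without vehicle P19 5 of 25 tested rose, where 2214 of all tested genes did. The genes that rose were CDKN1A, which encodes the CDK inhibitor p21 (9.30-fold, to 203806 ± 27900.2), MDM2, which encodes a ubiquitin ligase (8.21-fold, to 81828 ± 16451), and CCND2, a D-type cyclin gene (4.21-fold, to 10703 ± 1309).

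Of the 13 regulators that fell, E2F1, a transcription factor of RRM1 and RRM2, went down 12.5-fold, from 983 ± 56.7 to 77.7 ± 9.32 (limma adjusted p = 3.1e-07). E2F2 had 90.3 ± 28.7 normalized reads in vehicle and no read in any FOLFIRINOX library, at least 30.6-fold lower against a floor of 3 reads per library. CCNF, the cyclin F that marks RRM2 protein for destruction, fell 9.68-fold, from 1745 ± 212 to 181 ± 39.6 (adjusted p = 1.2e-06). CDK1 and its partner CCNA2, cyclin A2, phosphorylate SAMHD1 in cycling cells. CDK1 fell from 5377 ± 2527 to 40.6 ± 31.2, a log2 difference of −7.14, and its vehicle libraries spread widely, with 5909, 2626 and 7596 normalized reads in P14, P15 and P19. CCNA2 fell from 10429.7 ± 2585 to 412 ± 24.9 (−4.63).

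Since RRM2B, DGUOK and TK2 also serve mitochondrial DNA, 22 other genes of its upkeep were listed. Of these, 2 rose and 3 fell, with a median of 0.07, against 11.4% and 12.2% of all genes. With the replicate block 6 rose and 5 fell, where 22.3% and 21.8% of all genes did. With common-total scaling or without vehicle P19 4 rose, where 2684 and 2214 of all tested genes did. ABAT, which converts mitochondrial dNDPs besides breaking down GABA, rose 2.11-fold, from 381 ± 37.5 to 805 ± 91.7 (1.08 ± 0.18, limma adjusted p = 0.0018). SLC25A36, a pyrimidine nucleotide carrier, rose 1.93-fold to 8457 ± 2158 (adjusted p = 0.0128), a call lost in limma without a trend (0.0554) and without vehicle P14 (0.0583), each of which left 1 gene higher. DNA2, a nuclease and helicase of nucleus and mitochondria, fell 4.06-fold, from 1238 ± 532 to 289 ± 36.3 (adjusted p = 3.6e-04). POLRMT, the mitochondrial RNA polymerase, and TOP3A, a topoisomerase, had differences of −0.68 and −0.62 (adjusted p = 0.0453 and 0.0301). Both calls were lost when FOLFIRINOX P14 or P19, vehicle P14 or P15, or the P14 pair was left out, and with common-total scaling, quantile normalization or no trend, and DNA2 was then the 1 gene lower.

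**Figure D5:**
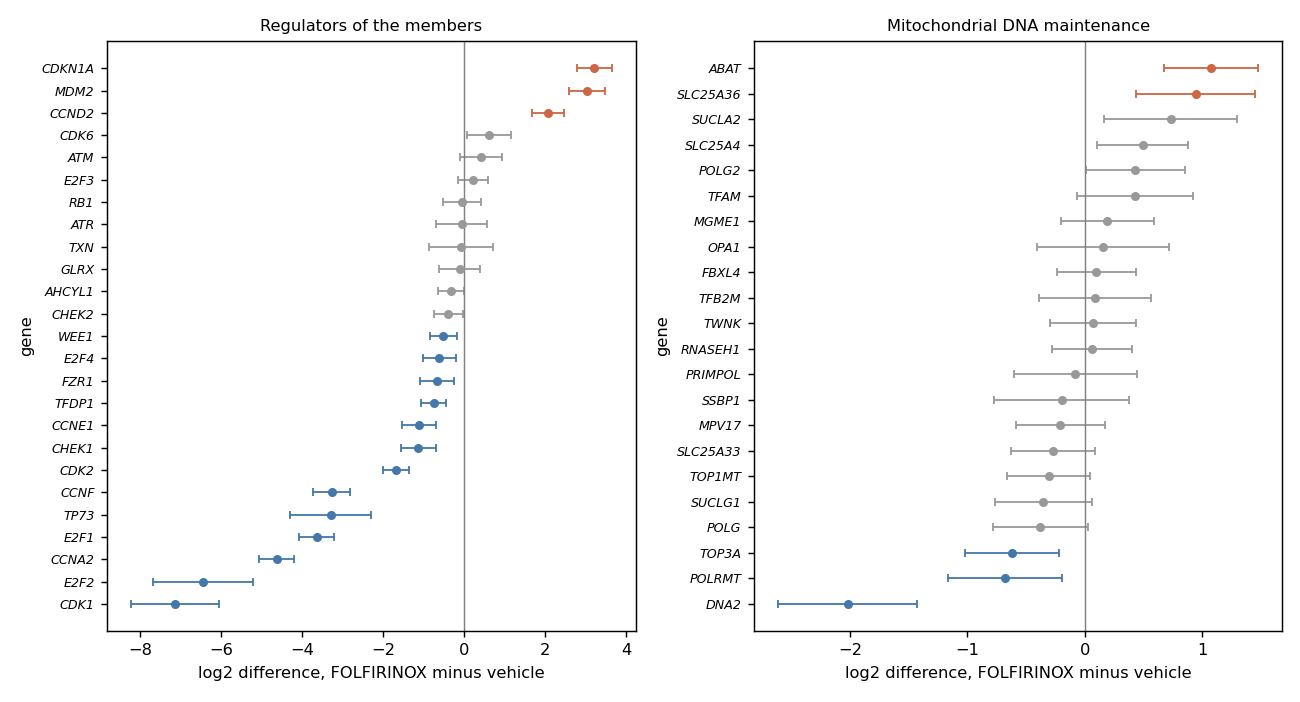
Log2 difference with its 95% interval for 25 of the 26 regulators of the members (left) and 22 mitochondrial DNA maintenance genes (right), orange where called higher, blue where called lower and grey where not called. The regulators span −7.14 (CDK1) to 3.22 (CDKN1A), and 17 of the 22 mitochondrial DNA genes were not called.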

How the data were processed

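Polyadenylated RNA of 6 libraries was sequenced, 3 per group. The submitters' processing notes name STAR 2.7.11b, featureCounts 2.0.6, FastQC 0.12.1, DESeq2 and the build GRCh38. The sources used here do not give the annotation, the strand setting or the DESeq2 design. The authors deposited a library-size-normalized signal per gene and library, log2 fold changes, a score (its statistic column) and p-values. Dividing each column by its smallest value gave whole numbers within 0.001 for 100% of values, so reads were recovered for the count tests. Of recovered values under 50, 72.3% to 74.8% were even, so a read here may not be 1 fragment.

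log2(value + 1) was fitted with limma 3.58.1, its variance prior following mean level, for genes reaching 10 in 3 or more libraries, Benjamini-Hochberg adjusted over all of them and called under 0.05. The median standard error was 0.226. Folds on this scale understate low genes. Lengths and positions came from GENCODE 29, promoter sequences from RefSeq. Libraries of the same P number correlated in their deviations from group means at 0.257, 0.282 and 0.288, above the 0.1 taken to mean pairing, so P numbers, which come from the column names alone, were read as pairs. The main limma fit did not use these pairs, which entered only in fits with the replicate block. In limma with the block the standard errors of RRM1, RRM2, RRM2B, SAMHD1 and DCTPP1 were 0.12, 0.14, 0.11, 0.12 and 0.14. In the main fit they were 0.20, 0.19, 0.22, 0.17 and 0.19. Separate cultures are stated by no label, and p-values then cover the spread of these libraries, which may be technical. Alternatives were pseudocounts of 0.5 and 8, no filter or one at 50, TMM, common-total and quantile scaling, no trend, edgeR 4.0.16, DESeq2 1.42.0, the replicate block, each library left out and both P14 libraries left out. Added after seeing the data were edgeR with the block and the longest transcript as length.

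The members and lists were chosen with earlier results of these data known. Named genes were the 9 members, up to 4 called genes per direction and list with the largest differences and a mean of 50 or more, 8 fixed genes (TYMS, TK1, DUT, TYMP, CDA, E2F1, CCNF and 1 that, like some genes of the lists, is not reported here), and the 3 nearest profiles to RRM2, RRM2B and SAMHD1. The fit was tested on simulated data with unpaired libraries and the same dispersion for every gene. That setting lacks the pairing seen here, so it does not show how the fit performs on these libraries.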

Additional observations from a re-analysis of the deposited data

How the results depend on the processing

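Over 19 alternatives each, RRM1, RRM2, RRM2B, SAMHD1 and DCTPP1 kept their direction and their call, and TK2 was never called. DCK kept its direction and lost its call in 6. DCTD changed sign, uncalled, to 0.077 with common-total scaling, 0.024 without both P14 libraries and 0.00090 without vehicle P14. DGUOK changed sign, uncalled, to −0.072, −0.010 and −0.026 without FOLFIRINOX P14, vehicle P15 and vehicle P19. Relative to the median of all genes under common-total scaling, DCTD was at −0.051 and DGUOK at 0.034.

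The replicate block changed no member's call. It gave 3995 genes higher and 3918 lower over all genes, 6 and 18 on the dNTP pathway list, 6 and 5 on the mitochondrial DNA list and 5 regulators higher. edgeR with the block gave 3560 and 4207, 4 and 18, 6 and 6, and 5. Without both P14 libraries 1021 and 1326 genes were called over all genes, 6 dNTP pathway genes lower and 1 mitochondrial DNA gene lower. On the mitochondrial DNA list, common-total and quantile scaling gave 4 higher and 1 lower, and limma without trend 1 and 1. Over all 17951 tested genes, common-total scaling gave 2684 higher and 1699 lower. Quantile scaling gave 2207 and 2030, and limma without trend 1702 and 1698. On the dNTP pathway list common-total scaling gave 4 higher. With each library left out in turn, 1201 to 2214 genes were higher and 1506 to 2156 lower, 4 to 5 members lower, 2 to 3 and 8 to 11 dNTP pathway genes, 1 to 4 and 1 to 3 mitochondrial DNA genes, and 3 to 5 and 9 to 12 regulators higher and lower. The difference in RRM2B share was 83.3 percentage points, 81.7 to 84.3 with a library left out, and 86.1 with the longest transcript as length. The cause of these shifts was not tested.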
